A study of Mus musculus with 18 samples.

Results

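The proteins of the cytosolic ribosome come from a large family of genes, and the mRNAs of 52 of them were followed across Hrs knockdown in a mouse melanoma. The members were the rows of the deposited count table whose symbol was on a list of 52 genes. These code for proteins of the large (Rpl) and small (Rps) ribosomal subunits. The rule used no measured value, but earlier results of these data were known when the list was chosen. All 52 were found among 23453 gene symbols, 30 of them of the large and 22 of the small subunit, and all 52 passed the filter on low counts in every comparison. The large-subunit members were Rpl3, Rpl4, Rpl5, Rpl6, Rpl7, Rpl7a, Rpl8, Rpl10, Rpl10a, Rpl11, Rpl12, Rpl13, Rpl13a, Rpl14, Rpl15, Rpl18, Rpl19, Rpl22, Rpl23, Rpl24, Rpl27, Rpl28, Rpl30, Rpl32, Rpl35, Rpl37, Rpl38, Rplp0, Rplp1 and Rplp2. The small-subunit members were Rpsa, Rps2, Rps3, Rps4x, Rps6, Rps7, Rps9, Rps10, Rps12, Rps13, Rps14, Rps15, Rps16, Rps18, Rps19, Rps20, Rps23, Rps24, Rps25, Rps26, Rps27 and Rps28.

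RNA came from B16F10 cells, a melanoma line of C57BL/6 mice, infected with lentivirus that carried an shRNA against Hrs (shHrs) or a scrambled shRNA (shCTL) and selected with puromycin or blasticidin for 5 days. Hrs, encoded by Hgs, is the subunit of the ESCRT machinery that gathers ubiquitinated membrane proteins at endosomes. There were 5 shHrs and 5 shCTL tumours from immunocompetent C57BL/6 mice, which were females 6 to 8 weeks old, and 2 shHrs and 2 shCTL cultures in each of 2 batches. The knockdown was carried by the injected melanoma cells and not by the host, and whole tumour pieces held host cells too, so that in tumours a lower share of cells of a type and less RNA per cell cannot be told apart. Libraries are labelled as biological repeats without a word on separate cultures within a batch, and p-values therefore cover only the spread between the sequenced libraries.

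Ribosomal proteins are made in matched amounts and assembled on ribosomal RNA in the nucleolus, and the finished subunits join on mRNA to make protein. Their mRNAs are among the most abundant in growing cells. In mammals they start with a pyrimidine tract that lets the kinase mTOR set how well they are translated, so that translation can change with no change of mRNA level.

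Promoter sequences are shown because the members share start-site features that the choice of members did not use. RefSeq promoter windows on GRCm38.p6 were matched by symbol for 44 of the 52 members and for 16404 genes of the table. The letters CTTTC, searched on the transcribed strand from 50 bases before to 50 after the annotated start, were present for 23 of 44 members (52.3%), against 13.3% of all genes and 16.4% of 67 mitochondrial ribosomal protein genes. In the following stretches of 15 bases on each side of the start, each in capitals where CTTTC stands, the motif lies at or next to the start.
Rpl28: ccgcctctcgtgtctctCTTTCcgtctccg
Rpl35: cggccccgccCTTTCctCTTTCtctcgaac
Rpl38: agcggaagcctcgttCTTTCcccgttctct
Rplp2: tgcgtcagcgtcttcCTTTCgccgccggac
Rps27: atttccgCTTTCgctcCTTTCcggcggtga

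These stretches lie at chr7:4792950-4792979 on the plus strand (Rpl28), chr2:39005117-39005146 on the minus strand (Rpl35), chr11:114668565-114668594 on the plus strand (Rpl38), chr7:141447636-141447665 on the plus strand (Rplp2) and chr3:90213634-90213663 on the minus strand (Rps27). A second motif, CGGAAG, was searched on either strand from 250 bases before to 50 after the start. It was present for 29 of 44 members (65.9%), against 23.7% of all genes and 55.2% of mitochondrial ribosomal protein genes, and this core is the one that ETS factors such as GABPA bind. The letters TATAAA, the core of a TATA box, were present for 4 of 44 members (9.09%), against 14.3% of all genes. The 60 bases before the start follow, with CGGAAG on either strand in capitals. First come 3 members that hold it there. Then come 3 members whose response to the knockdown differed between tumours and cultures at an adjusted p under 0.05 by edgeR.
Rps6: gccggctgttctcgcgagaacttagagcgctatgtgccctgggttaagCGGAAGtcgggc
Rpl37: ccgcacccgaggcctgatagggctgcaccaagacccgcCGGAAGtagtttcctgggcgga
Rpl38: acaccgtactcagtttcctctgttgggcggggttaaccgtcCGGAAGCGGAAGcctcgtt
Rpl10: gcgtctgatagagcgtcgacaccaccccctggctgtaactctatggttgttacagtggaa
Rplp0: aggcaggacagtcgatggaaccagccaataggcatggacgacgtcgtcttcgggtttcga
Rps4x: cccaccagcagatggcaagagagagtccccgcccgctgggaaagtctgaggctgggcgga

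They lie at chr4:86857368-86857427 on the minus strand (Rps6), chr15:5116553-5116612 on the plus strand (Rpl37), chr11:114668520-114668579 on the plus strand (Rpl38), chrX:74270756-74270815 on the plus strand (Rpl10), chr5:115559407-115559466 on the plus strand (Rplp0) and chrX:102189392-102189451 on the minus strand (Rps4x). The letters CGGAAG are not in the stretches of Rpl10, Rplp0 and Rps4x printed here, and the rest of the window searched is not shown. The tumour effect minus the culture effect was also negative for Rpl37 (-0.86), Rpl38 (-0.65) and Rps6 (-0.43), as for all 52 members. The stretches are therefore no contrast of members with and without a different response. A match describes the letters and says nothing of a factor.

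Totals were 17.6 to 27.7 M counts per library (M, mega), and the 52 members together held 3.83% to 6.13% of a library's counts. Hgs was lower in every shHrs library. It stood at 23.6, 16.9, 20.9, 29.6 and 15.9 CPM (counts scaled to library size) in shHrs tumours, against 106, 97.3, 111, 108 and 96.0 CPM in shCTL tumours. In cultures it stood at 36.3 and 30.3 CPM (batch 1) and 44.2 and 40.1 CPM (batch 2) with shHrs, against 96.2 and 116 CPM (batch 1) and 100.1 and 108 CPM (batch 2) with shCTL. By edgeR its log2 fold change was -2.28 (SE 0.16, adjusted p = 0.000106) in tumours and -1.49 (SE 0.17, adjusted p = 0.0502) in cultures. The tumour effect minus the culture effect was -0.82 for Hgs itself (SE 0.21, adjusted p = 0.0407, from 0.00904 to 0.109 over the alternatives), with the deeper knockdown at the mRNA level in tumours.

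Some libraries stood apart for many genes. Over 9226 to 9297 expressed genes, the deviation of a library from the shCTL mean of its kind and batch went with mRNA length, and the Spearman rho across genes, which are not independent, was -0.39 in the library of shHrs tumour 4, -0.46 in shHrs culture 2 of batch 2, 0.35 in shHrs tumour 5 and 0.33 in shCTL tumour 2. In the other 14 libraries it lay between -0.24 and 0.15. A negative rho means relatively more of short mRNAs, and the members' mRNAs were short, with a median of 942 bases.

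Markers of other cell types also varied among the tumours. The summed level of 22 leukocyte markers was 218 to 1105 CPM in shHrs tumours and 46.1 to 603 CPM in shCTL tumours, with the highest value in shHrs tumour 4. The 6 muscle markers summed to 16.2 to 721 CPM in shHrs tumours and 4.96 to 170 CPM in shCTL tumours, and again shHrs tumour 4 was highest. The 7 fibroblast markers summed to 252 to 1823 CPM in shHrs tumours and 276 to 3122 CPM in shCTL tumours, with shCTL tumour 5 highest. The 4 red-cell markers in the table summed to 27.4 to 144 CPM in shHrs tumours and 56.9 to 1836 CPM in shCTL tumours. The 7 melanoma markers, among them Pmel, Tyr and Dct, summed to 20070 to 27110 CPM in shHrs tumours and 20050 to 24750 CPM in shCTL tumours, so that the labelled tumour type was present in every tumour library. In cultures the melanoma markers summed to 19850 and 8096 CPM (batch 1) and 5180 and 4210 CPM (batch 2) with shHrs, against 15430 and 9754 CPM (batch 1) and 14170 and 11660 CPM (batch 2) with shCTL. Also in cultures, the leukocyte markers summed to 4.25 to 11.6 CPM with shHrs and 8.95 to 38.9 CPM with shCTL, with Cd52, Cd3d, Emr1, C1qa, Tyrobp and S100a9 at 0 in all 8 libraries.

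The members differed widely in level per length of mRNA, with group means of 9.64 to 3471 in shCTL tumours. Levels between genes are given here as CPM per kilobase of the principal mRNA. Rplp1, a protein of the stalk that recruits translation factors, was highest at 3153 ± 598 CPM per kilobase in shHrs tumours and 3471 ± 321 in shCTL tumours (SD, n = 5 each). It was first in all 6 groups. Rps12 followed it in shCTL tumours at 1907 ± 195 CPM per kilobase (SD, n = 5).

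The lowest levels belonged to Rps27 and Rpl30 in all 6 groups. Rps27, a zinc-binding protein of the small subunit, stood at 9.98 ± 2.70 CPM per kilobase in shHrs tumours and 9.64 ± 1.81 in shCTL tumours (SD, n = 5 each). Rpl30, a small protein at the subunit interface, stood at 28.8 ± 3.06 CPM per kilobase in shHrs tumours and 33.3 ± 3.79 in shCTL tumours (SD, n = 5 each). Of the 50-base stretches of the Rps27 mRNA, 98.6% also occurred in the annotated transcripts of other genes, all but 1 of the 9 genes being pseudogenes, and for Rpl30 the share was 29.7%. Across the members this share ran from 3.0% (Rps3) to 98.6%. It was above 50% for 22 members, among them Rpl3 (85.6%), Rpl10 (85.4%) and Rps4x (72.2%). How the deposited counts treated reads shared with the many ribosomal pseudogenes is not given. Levels of such members, most of all Rps27, are therefore uncertain, and the part of shared reads in the low level was not tested. Levels of Rps20 and Rpl18 were divided by principal mRNAs of 3706 and 2989 bases, the longest where a gene had several. Such lengths lower a value per kilobase apart from any shared reads.

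**Figure D1:**
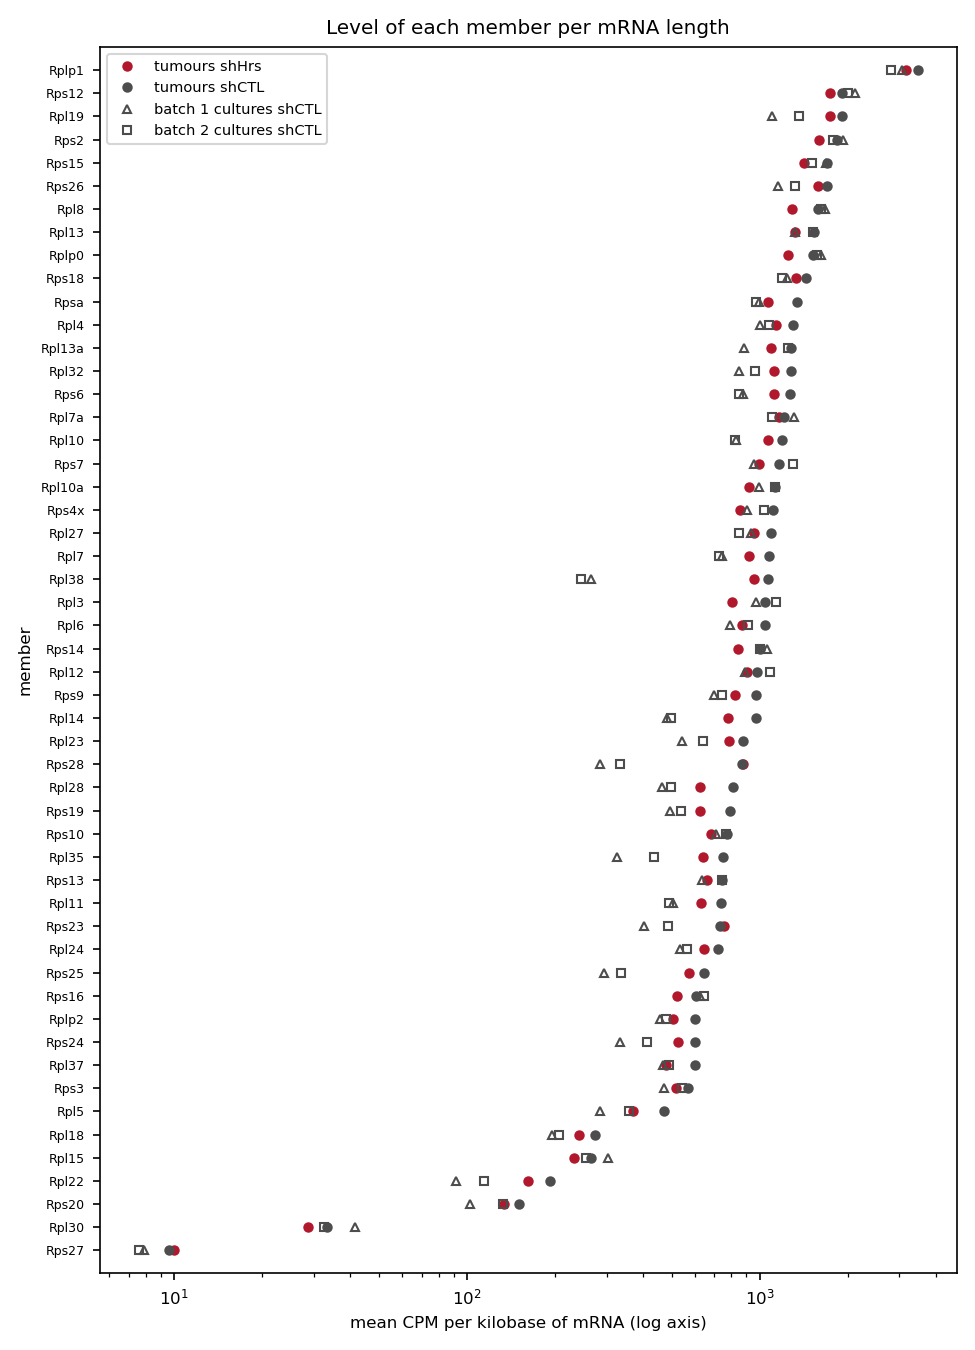
Mean CPM per kilobase of the principal mRNA for the 52 members on a log axis, in shHrs tumours (red circles), shCTL tumours (grey circles) and shCTL cultures of batch 1 (triangles) and batch 2 (squares). Rplp1 is highest at 3471 CPM per kilobase in shCTL tumours and Rps27 is lowest at 9.64, and Rpl38 and Rps28 stand lower in cultures than in tumours.

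Some members also had another level in tumours than in cultures. With all 18 libraries on one scale, shCTL tumours stood above shCTL cultures without overlap for 26 of 52 members, against 22.4% of all genes, and below them for none of the members, against 18.9% of all genes. Rpl38, a protein known in mice for its part in the patterning of the axial skeleton, averaged 491 CPM in shCTL tumours and 114 CPM in shCTL cultures, a ratio of 4.29. Rps28 averaged 383 CPM in shCTL tumours and 133 CPM in shCTL cultures (ratio 2.89). Ratios of all members ran from 0.92 (Rpl30) to 4.29. These ratios are a description with no test, and the tumours held host cells that the cultures did not. Tumours and cultures were also separate sets of libraries, so any difference of sequencing run between them cannot be told apart from tissue.

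In tumours, the mRNAs of nearly all members stood lower with shHrs, by a small amount that passed the threshold for none of them. The log2 fold change, shHrs over shCTL, was negative for 49 of 52 members, against 48.5% of 13215 genes tested. Its median was -0.20 over the members and 0.01 over all genes. By edgeR, 0 of 52 members passed an adjusted p of 0.05, against 0.31% of all genes that passed as lower and 0.235% as higher. At an unadjusted p under 0.05, 17 members were lower, against 7.17% of all genes, and 0 were higher, against 6.96%. DESeq2 called 6 members lower, namely Rpl3, Rpl5, Rplp0, Rps19, Rps4x and Rpsa, against 1.88% of all genes by the same tool. By limma voom 0 members were called, against 0.341% of all genes called lower and 0.25% higher.

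Both subunits showed this, with medians of -0.22 for the 30 large-subunit members, all negative, and -0.18 for the 22 small-subunit members, of which 19 were negative. The 28 ribosomal protein genes of the table that are not members gave the same picture, with 28 of 28 negative, a median of -0.24 and 0 called. Other abundant short mRNAs, a set chosen after the values were seen (up to 1500 bases, mean log2 CPM of at least 7, no ribosomal protein), were negative for 110 of 211 with a median of -0.01.

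The members deviated together, library by library. The median deviation of the 52 members from the shCTL mean, in log2(CPM + 2), was -0.33, -0.15, -0.19, 0.04 and -0.38 in shHrs tumours 1 to 5, against 0.11, -0.21, 0.10, 0.00 and -0.02 in shCTL tumours 1 to 5. The SD among the 52 members was 0.09 to 0.25 within an shHrs tumour and 0.05 to 0.11 within an shCTL tumour. In shHrs tumours 1, 2, 3 and 5 nearly every member was below the shCTL mean, whereas shHrs tumour 4 had 28 above it and 24 below. That library is the tumour with the strongest negative length trend and the highest leukocyte and muscle markers. Its fibroblast markers (1823 CPM) were below those of shCTL tumours 5 (3122 CPM) and 2 (1895 CPM). The library of shCTL tumour 2, with a positive length trend, had all 52 members below the shCTL mean. The part of the length trend and of these markers in the result was not tested. Without shHrs tumour 4 all 52 members were negative with a median of -0.28. Of them 41 reached an unadjusted p under 0.05 by edgeR, against 2282 of 13291 genes in either direction. None was called, against 0.594% of all genes called lower. Without shCTL tumour 2, 51 were negative and 30 reached that p, against 1754 of 13316 genes. Without shHrs tumour 1 or without shCTL tumour 1 the number was 11, against 1514 of 13305 and 1581 of 13396 genes.

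**Figure D2:**
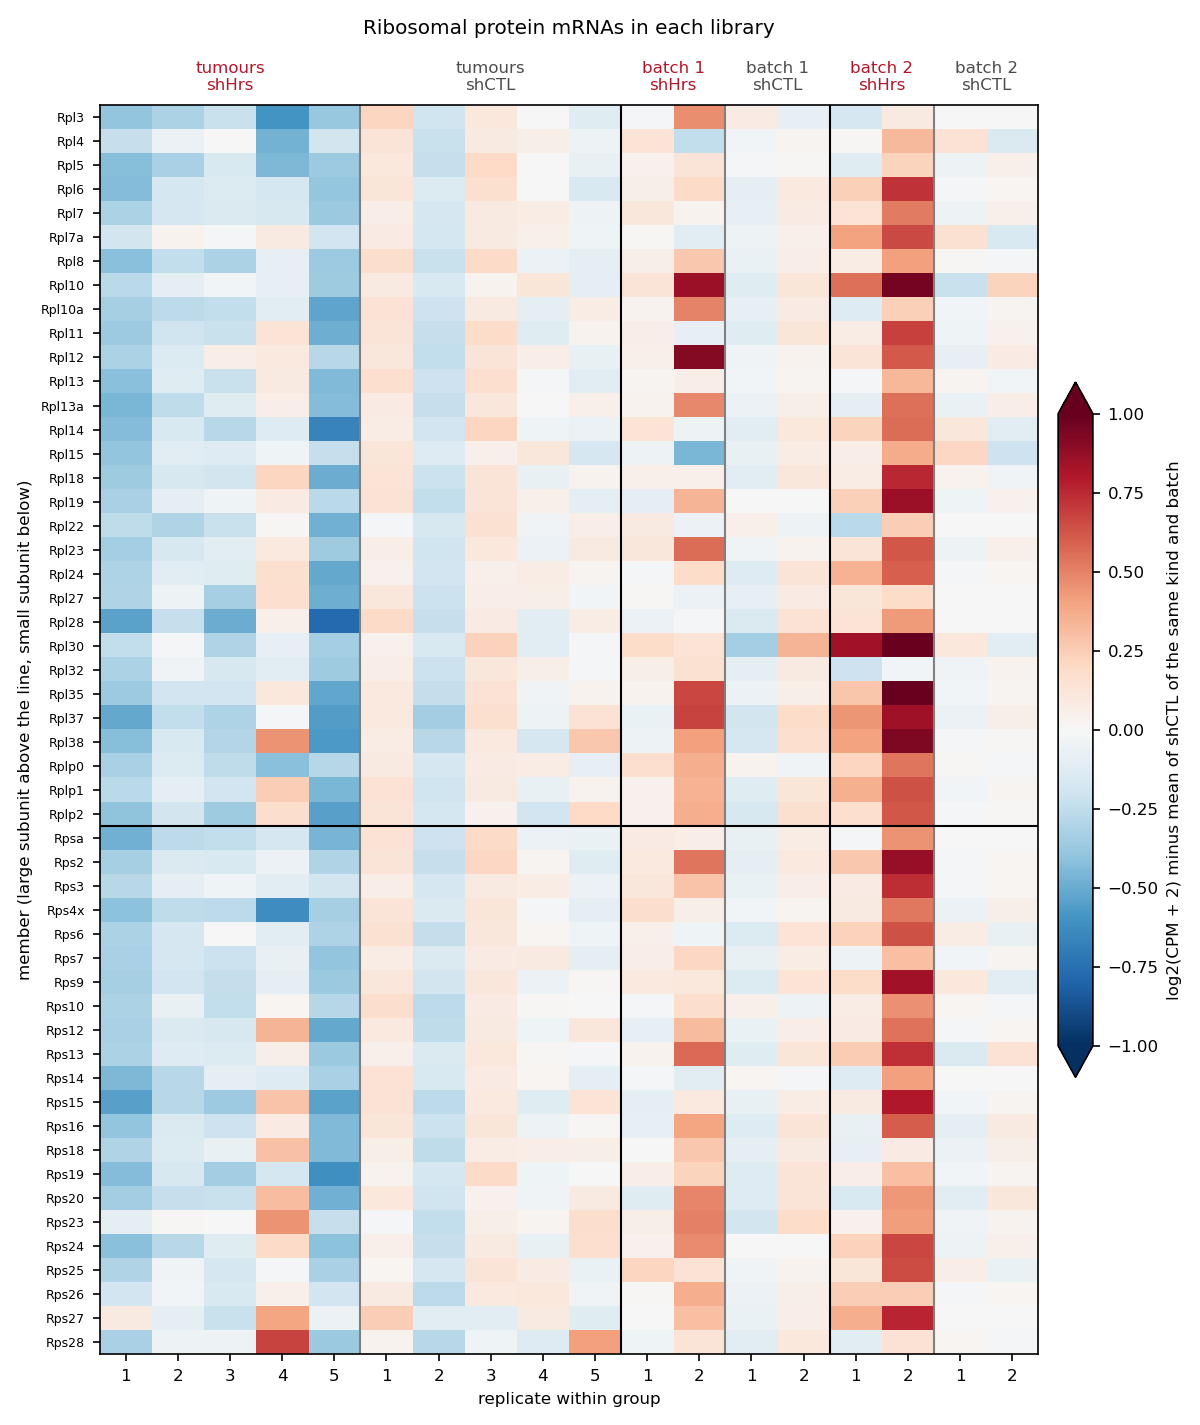
Each member's log2(CPM + 2) minus the mean of the shCTL libraries of the same kind and batch, for the 18 libraries (columns, by group and replicate) and 52 members (rows, large subunit above the black line); the colour scale ends at -1 and 1. In the tumour columns, shHrs tumours 1 and 5 are blue for nearly every member (medians -0.33 and -0.38), shHrs tumour 4 is mixed (0.04), and shHrs culture 2 of batch 2 is red for 51 of 52 members (median 0.55).

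Rpl3, which lies near the peptidyl transferase centre, had the lowest fold change in tumours. Its level was 1070, 1129, 1205, 927 and 1080 CPM in shHrs tumours, against 1631, 1221, 1513, 1410 and 1293 CPM in shCTL tumours. Each shHrs tumour was below each shCTL tumour. The log2 fold change was -0.39 (SE 0.10, adjusted p = 0.117 by edgeR), and the adjusted p ran from 0.00824 (DESeq2) to 0.317 over the alternatives.

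Rps4x, a small-subunit protein encoded on the X chromosome, had 813, 902, 899, 702 and 855 CPM in shHrs tumours, against 1180, 976, 1175, 1065 and 1013 CPM in shCTL tumours. Here too the groups did not overlap, which was so for 2 of 52 members, against 2.61% of all genes that were lower without overlap. No member was higher without overlap, against 1.91% of all genes. The log2 fold change was -0.38 (SE 0.09, adjusted p = 0.104). Rpl3 and Rps4x were lowest in shHrs tumour 4, the library in which most other members were not low.

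The other 2 lowest members were Rpl28 and Rpl5. Rpl28 had 616, 764, 635, 928 and 522 CPM in shHrs tumours, against 1020, 760, 947, 828 and 942 CPM in shCTL tumours, and the groups overlapped, with shHrs tumour 4 at the level of shCTL. Its log2 fold change was -0.38 (SE 0.15, adjusted p = 0.274). Rpl5 binds the small ribosomal RNA of the large subunit together with Rpl11, and in human cells both can hold MDM2 away from p53 when ribosome assembly is disturbed. Rpl5 had a log2 fold change of -0.35 (SE 0.10, adjusted p = 0.134) and Rpl11 of -0.22 (SE 0.12, adjusted p = 0.462).

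At the other end stood Rps27, Rps23, Rps28 and Rpl7a, with log2 fold changes of 0.05 (SE 0.23), 0.04 (SE 0.13), 0.01 (SE 0.20) and -0.05 (SE 0.09). Rps28 had 299.7, 363, 364, 601 and 291 CPM in shHrs tumours, against 386, 310, 366, 344 and 500 CPM in shCTL tumours. Its 2 highest libraries were shHrs tumour 4 and shCTL tumour 5, which also had the highest and the second highest leukocyte marker sums. Without shHrs tumour 4 its log2 fold change was -0.21.

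Members with roles beyond the ribosome or in assembly lay between these ends in tumours. In the stalk, log2 fold changes were -0.28 (SE 0.09, adjusted p = 0.155) for Rplp0, the stalk base, -0.14 (SE 0.13) for Rplp1 and -0.25 (SE 0.14) for Rplp2. For Rps19 and Rps14, whose loss in humans causes failure of red-cell formation, they were -0.34 (SE 0.10, adjusted p = 0.155) and -0.26 (SE 0.09, adjusted p = 0.230). Rpsa, also known as the laminin receptor precursor, had -0.33 (SE 0.10, adjusted p = 0.170). Rps6, the substrate of S6 kinase downstream of mTOR, had -0.18 (SE 0.10, adjusted p = 0.433).

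Rpl10, which joins the large subunit late and lines the site of the peptidyl tRNA, had -0.16 (SE 0.09, adjusted p = 0.462) in tumours. Rpl22, which in mice is needed for the development of alpha beta T cells, had -0.25 (SE 0.10, adjusted p = 0.278). Rpl13a, which in human cells can leave the ribosome to silence inflammatory mRNAs, had -0.23 (SE 0.11, adjusted p = 0.404). Rps3, at the mRNA entry site, had -0.14 (SE 0.08, adjusted p = 0.474) and Rps26, at the exit site, -0.10 (SE 0.09, adjusted p = 0.677).

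In cultures the mRNAs of nearly all members stood higher with shHrs, and again none passed the threshold. With batch as a term, the log2 fold change was positive for 50 of 52 members, against 48.3% of 12617 genes tested. Its median was 0.24 over the members and -0.02 over all genes. By edgeR 0 members were called, as was the case for all genes (background 0%), and at an unadjusted p under 0.05, 5 members were higher, against 5.73% of all genes, and 0 were lower, against 7.59%. DESeq2 called 0 members, against 0.872% of all genes called higher and 1.51% lower. By limma voom 0 members were called, against 0.00793% and 0.0317% of all genes. Other abundant short mRNAs were positive for 124 of 180 with a median of 0.18. The 7 melanoma markers were negative for 7 of 7 with a median of -0.62 and 0 called, and their part in the result was not tested. The members' median was 0.13 without shHrs culture 2 of batch 2.

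The 4 members with the highest fold changes in the cultures were Rpl30, Rpl10, Rps27 and Rpl35. Rpl30 had 41.0 and 39.7 CPM (batch 1) and 52.9 and 87.7 CPM (batch 2) with shHrs, against 27.9 and 45.8 CPM (batch 1) and 31.0 and 26.5 CPM (batch 2) with shCTL. In batch 1 the groups overlapped, and in batch 2 both shHrs cultures were above both shCTL cultures, most of all shHrs culture 2. Its log2 fold change over both batches was 0.71 (SE 0.31, adjusted p = 0.370).

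Rpl10 had 771 and 1277 CPM (batch 1) and 1020 and 1350 CPM (batch 2) with shHrs, against 648 and 769 CPM (batch 1) and 594 and 812 CPM (batch 2) with shCTL. In each batch both shHrs cultures were above both shCTL cultures. The log2 fold change was 0.64 (SE 0.22, adjusted p = 0.333). Rps27, whose counts were only 49 to 159 per culture, had 0.58 (SE 0.31, adjusted p = 0.427) and Rpl35, at the exit of the peptide tunnel, 0.55 (SE 0.23, adjusted p = 0.359).

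Rplp0 and Rps2, a protein at the mRNA entry channel, were the 2 of 52 members whose 4 shHrs cultures all stood above the 4 shCTL cultures, against 2.84% of all genes, and none had all 4 below, against 3.34%. Rplp0 had 2465 and 2832 CPM (batch 1) and 2479 and 3087 CPM (batch 2) with shHrs, against 2246 and 2147 CPM (batch 1) and 2155 and 2114 CPM (batch 2) with shCTL. Its log2 fold change was 0.33 (SE 0.16, adjusted p = 0.394). For Rps2 the groups nearly met, at 2242 CPM in the lowest shHrs culture and 2241 CPM in the highest shCTL culture.

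At the lower end Rpl15, Rpl32, Rpl22 and Rps28 had log2 fold changes of -0.01 (SE 0.20), -0.01 (SE 0.15), 0.02 (SE 0.17) and 0.03 (SE 0.15). Of the members with roles in assembly or beyond the ribosome, Rplp1 had 0.35 (SE 0.17), Rplp2 0.31 (SE 0.18), Rps3 0.32 (SE 0.19) and Rpl13a 0.27 (SE 0.19). Rps26, Rps6 and Rpl11 had 0.22 (SE 0.15), 0.22 (SE 0.18) and 0.20 (SE 0.19), and Rps19 and Rpsa 0.17 (SE 0.15) and 0.15 (SE 0.17). Rpl5 and Rps14 had 0.07 (SE 0.15) and 0.05 (SE 0.17). The adjusted p of these members was 0.397 or more.

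**Figure D3:**
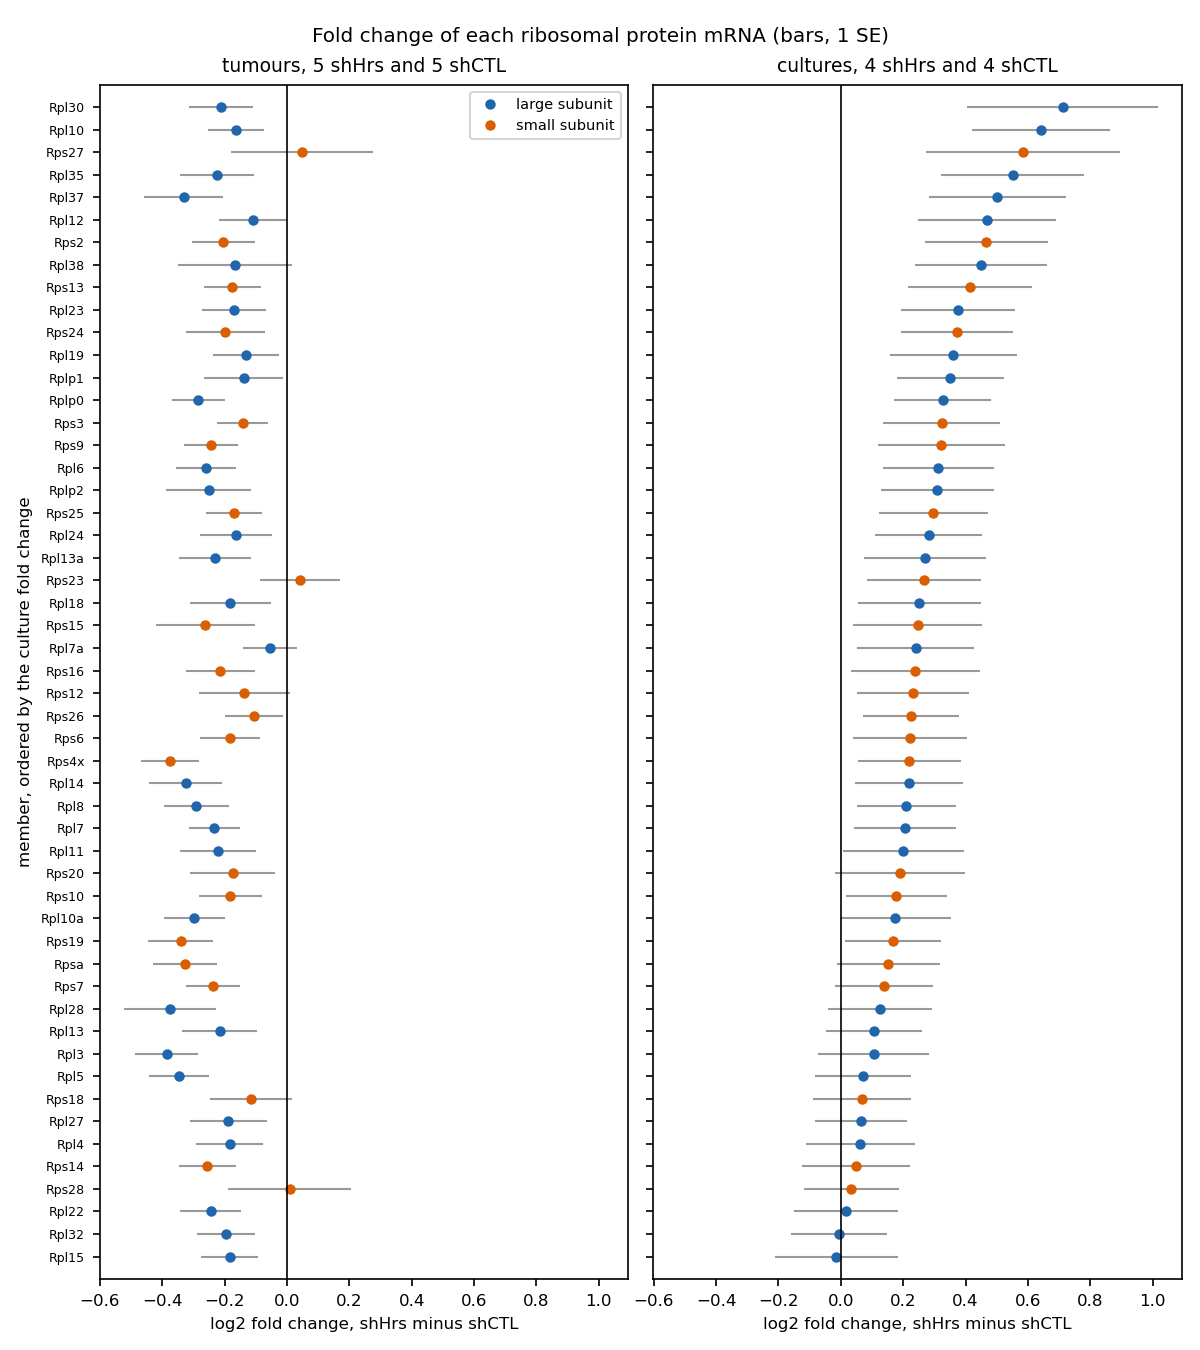
Log2 fold change, shHrs over shCTL, of each of the 52 members in tumours (left panel) and in cultures of both batches (right panel), with bars of 1 SE and members in the order of the culture fold change. In tumours 49 of 52 points lie below 0, and in cultures 50 of 52 lie above 0.

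Most members were positive in both culture batches, with the larger median in batch 2. In batch 1 the log2 fold change was positive for 44 of 52 members with a median of 0.14, against 50.6% of 12897 genes and a median of 0.01. In batch 2 it was positive for 49 of 52 with a median of 0.36, against 47.3% and a median of -0.05, and negative for 3, against 52.7% of all genes. By edgeR 0 members were called in batch 1, where 0% of all genes were, and 0 in batch 2, where 1.6% of all genes were called higher and 2.43% lower. At an unadjusted p under 0.05, 0 members were higher in batch 1 (background 3.43%) and 4 in batch 2 (background 13%). None was lower at that p in batch 1 (background 5.95%) or in batch 2 (background 14.9%).

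Both shHrs cultures stood above both shCTL cultures for 10 members in batch 1, against 15.5% of all genes, and for 36 in batch 2, against 32.5%. Both stood below for 1 member in batch 1, against 16.6% of all genes, and for 0 in batch 2, against 37.1%. The extremes of batch 1 were Rpl12 at 0.55 (SE 0.32), Rpl10 at 0.53 (SE 0.31), Rpl35 at 0.39 (SE 0.32) and Rpl23 at 0.36 (SE 0.26), and at the lower end Rpl15 at -0.24 (SE 0.26), Rps14 at -0.07 (SE 0.24), Rpl7a at -0.05 (SE 0.23) and Rpl4 at -0.04 (SE 0.25). The median of batch 1 was 0.04 without its shHrs culture 2, 0.07 without its shCTL culture 1 and 0.22 without its shCTL culture 2.

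In batch 2, Rpl30 had a log2 fold change of 1.29 (SE 0.33, adjusted p = 0.0627, from 0.00114 to 0.366 over the alternatives). Rps27 had 0.90 (SE 0.40), Rpl10 0.75 (SE 0.31) and Rpl35 0.71 (SE 0.32). At the lower end stood Rpl32 at -0.12 (SE 0.21), Rpl3 at -0.03 (SE 0.25), Rps18 at 0.00 (SE 0.22) and Rpl22 at 0.01 (SE 0.24). A fit of batch 2 alone called 6 of 52 members higher, Rpl10, Rpl30, Rpl35, Rpl37, Rpl38 and Rps27, against 16.1% of all genes in that fit. DESeq2 called 1 of 52, Rpl30, against 7.51% of all genes. Neither count was above the share of all genes.

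The 2 shHrs cultures of batch 2 were unequal. The median deviation of the members from the shCTL mean was 0.11 in shHrs culture 1 and 0.55 in shHrs culture 2 of batch 2, and shHrs culture 2 also had the strongest negative length trend. In batch 1 the median deviation was 0.04 in shHrs culture 1 and 0.22 in shHrs culture 2. Without shHrs culture 2 of batch 2 the batch 2 median was 0.14, and without shHrs culture 1 it was 0.55. Other abundant short mRNAs were positive for 135 of 180 in batch 2 with a median of 0.36, and for 83 of 180 in batch 1 with a median of -0.03. The part of the length trend was not tested.

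The batch 2 effect minus the batch 1 effect was positive for 40 of 52 members, with a median of 0.21, against 48.1% of all genes and a median of -0.04. Other abundant short mRNAs were positive for 137 of 180 with a median of 0.43, as often as the members and by more. By edgeR 0 members were called, against 0.132% of all genes called higher and 0.0233% lower, and 1, Rpl30, reached an unadjusted p under 0.05, against 9.73% of all genes. Rpl30 had the largest difference at 1.16 (SE 0.46, adjusted p = 0.207), followed by Rps27 at 0.64 (SE 0.57), Rpl7a at 0.58 (SE 0.32) and Rpl38 at 0.51 (SE 0.39). The lowest were Rpl3 at -0.28 (SE 0.35), Rpl32 at -0.22 (SE 0.30), Rpl10a at -0.22 (SE 0.36) and Rpl12 at -0.16 (SE 0.45). Without shHrs culture 2 of batch 2 the median was -0.01, without shHrs culture 1 of batch 2 it was 0.42, and without shHrs culture 1 of batch 1 it was 0.13.

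**Figure D4:**
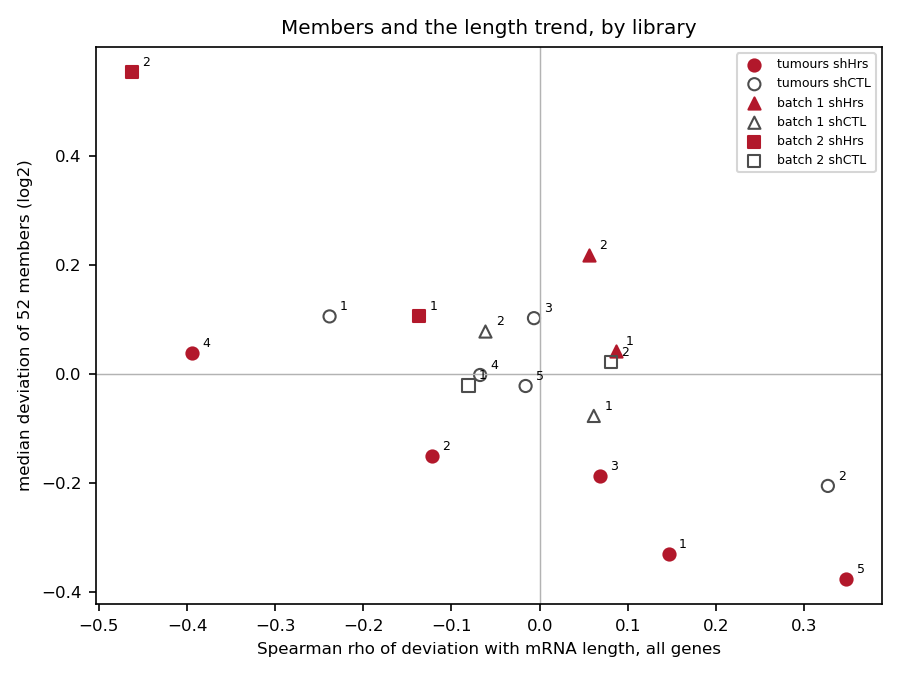
For each of the 18 libraries, the median deviation of the 52 members from the shCTL mean of its kind and batch (vertical axis, log2) against the Spearman rho, across all expressed genes, of the deviation with mRNA length (horizontal axis), with replicate numbers beside the points. The library of shHrs culture 2 of batch 2 is at the upper left (0.55 and -0.46), shHrs tumour 4 at the left (0.04 and -0.39), and shHrs tumour 5 at the lower right (-0.38 and 0.35).

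The response to the knockdown in tumours was set against the mean response of the cultures in a fit of all 18 libraries, in which the fold change of Hgs differed as well. The difference, tumour effect minus culture effect, was negative for 52 of 52 members, against 48.8% of 14458 genes tested, with a median of -0.50 over the members and 0.01 over all genes. By edgeR 4 of 52 members were called lower, against 1.49% of all genes, and 0 higher, against 2.12%. They were Rpl30, Rpl10, Rplp0 and Rps4x. Other abundant short mRNAs were negative for 142 of 199 with a median of -0.17, with 10 called lower and 1 higher. Of 1715 abundant genes of any length (log2 CPM from 7 upward on average), 1087 were negative, with a median of -0.13 and 49 called lower. At an unadjusted p under 0.05, 39 members were lower, against 10.7% of all genes, and 0 were higher, against 10.3%.

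Rpl30 had a difference of -0.95 (SE 0.23, adjusted p = 0.0333 by edgeR). In tumours it had 24.5, 28.9, 23.5, 27.7 and 22.8 CPM with shHrs, against 30.2, 26.2, 34.8, 27.1 and 29.2 CPM with shCTL. The tumour groups overlapped, and the difference came from effects of -0.21 (SE 0.10) in tumours and 0.71 (SE 0.31) in cultures. The Rpl30 gene, introns included, overlaps an annotated gene on the other strand, D730044K07Rik. Whether their exons overlap was not examined, which would matter where reads were counted without strand.

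Rpl10 had a difference of -0.83 (SE 0.22, adjusted p = 0.0477). In tumours it had 846, 953, 1001, 964 and 795 CPM with shHrs, against 1082, 918, 1042, 1109 and 956 CPM with shCTL, and the groups overlapped. Its effects were -0.16 (SE 0.09) in tumours and 0.64 (SE 0.22) in cultures.

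Rplp0 had a difference of -0.63 (SE 0.15, adjusted p = 0.0320). In tumours it had 1642, 1870, 1726, 1535 and 1687 CPM with shHrs, against 2191, 1834, 2171, 2165 and 1939 CPM with shCTL. Of the shHrs tumours, only tumour 2 was above the lowest shCTL tumour. No other annotated gene overlaps Rplp0 or Rps4x. Of their 50-base stretches, 41.8% and 72.2% also occurred in annotated transcripts of other genes, and 85.4% of those of Rpl10.

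Rps4x had a difference of -0.62 (SE 0.17, adjusted p = 0.0499). In cultures it had 998 and 917 CPM (batch 1) and 1067 and 1445 CPM (batch 2) with shHrs, against 866 and 899 CPM (batch 1) and 963 and 1047 CPM (batch 2) with shCTL. Both shHrs cultures of each batch were above both shCTL cultures of that batch, and the effect in cultures was 0.22 (SE 0.17).

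Behind these 4 came Rpl37 at -0.86 (SE 0.24, adjusted p = 0.0555) and Rpl35 at -0.80 (SE 0.24, adjusted p = 0.0709), both with larger differences than Rplp0. The smallest differences were those of Rps28 at -0.05 (SE 0.26), Rpl15 at -0.19 (SE 0.17), Rps18 at -0.21 (SE 0.19) and Rpl32 at -0.21 (SE 0.15). Of the members with roles beyond the ribosome, Rps19 had -0.53 (SE 0.16), Rpsa -0.50 (SE 0.17), Rps3 -0.49 (SE 0.18), Rps6 -0.43 (SE 0.17), Rpl22 -0.29 (SE 0.17) and Rps14 -0.33 (SE 0.17). Rplp1 had -0.52 (SE 0.19), Rplp2 -0.59 (SE 0.22), Rpl13a -0.53 (SE 0.21), Rpl5 -0.44 (SE 0.16), Rpl11 -0.45 (SE 0.20), Rps26 -0.35 (SE 0.15) and Rps27 -0.56 (SE 0.34).

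**Figure D5:**
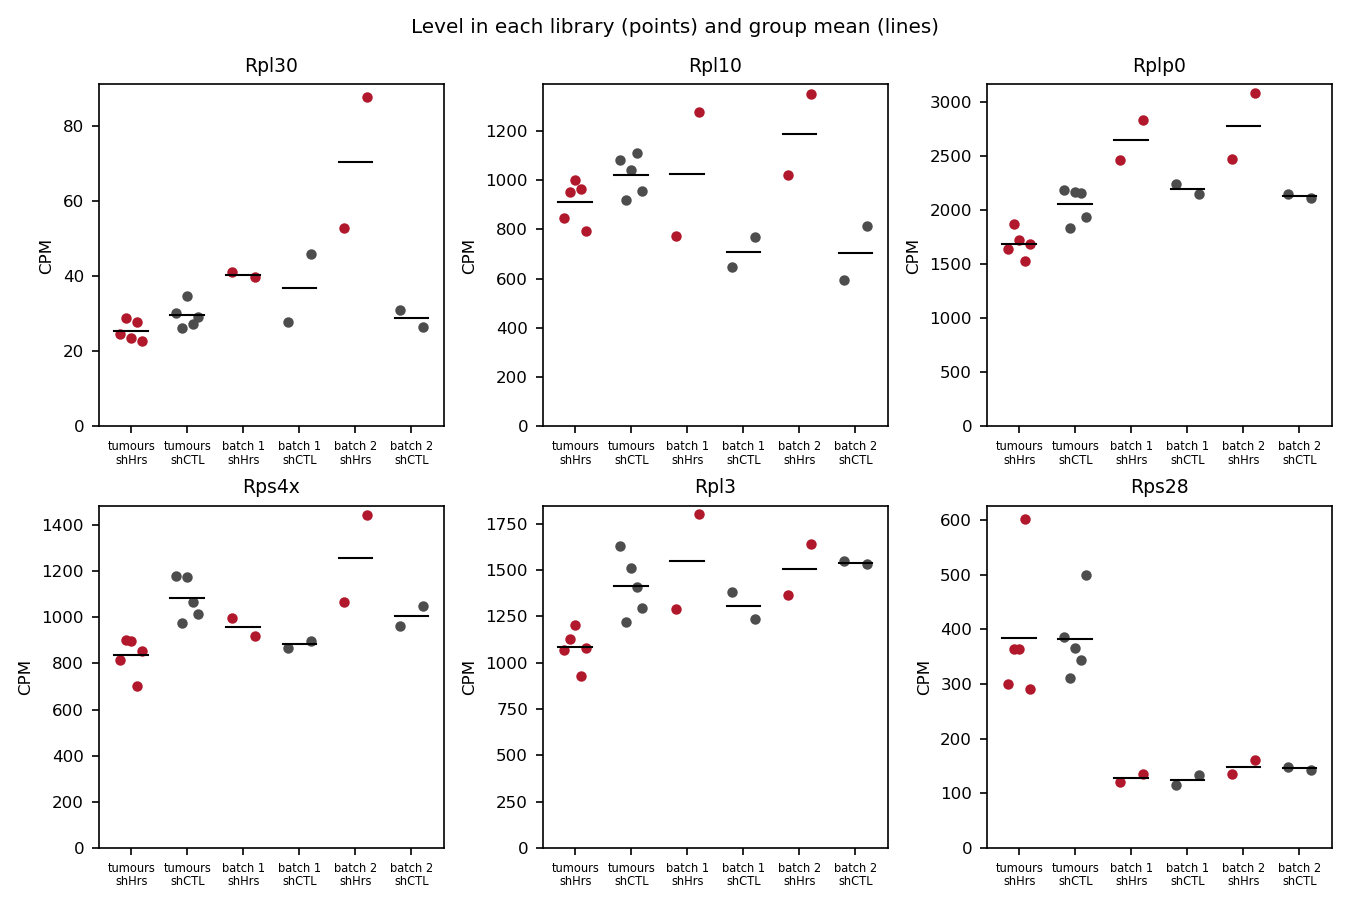
CPM of Rpl30, Rpl10, Rplp0, Rps4x, Rpl3 and Rps28 in every library (points, shHrs red and shCTL grey) with the group mean (line), on axes from 0; CPM were scaled within tumours and within cultures. For Rps4x and Rpl3 the 5 shHrs tumours (702 to 902 and 927 to 1205 CPM) lie below the 5 shCTL tumours (976 to 1180 and 1221 to 1631 CPM), and for Rpl30 the 2 shHrs cultures of batch 2 lie highest at 52.9 and 87.7 CPM.

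The number of calls in this difference turned on single libraries, and its sign held for 51 or more of 52 members without any of them. DESeq2 called 20 members lower, against 4.68% of all genes, limma voom 2 (Rpl30 and Rplp0), against 1.27%, and a fit with the replicate number as a block 1 (Rpl10), against 0.948%. No member was called when shHrs tumour 1, 3 or 5, shCTL tumour 1, 3 or 4, shCTL culture 1 of batch 1, shHrs culture 2 of batch 2 or shCTL culture 1 of batch 2 was left out, where 0.314% to 0.83% of all genes were called lower. There was 1 call without shCTL tumour 5, shHrs culture 2 of batch 1 or shCTL culture 2 of batch 2, where 0.401% to 1.48% of all genes were called lower. There were 2 calls without shHrs tumour 2 (0.623% of all genes) and 3, Rpl30, Rpl37 and Rplp0, without shCTL tumour 2 (0.978% of all genes). There were 9 without shHrs tumour 4 (1.92% of all genes), 9 without shCTL culture 2 of batch 1 (4.7%), 15 without shHrs culture 1 of batch 2 (2.68%) and 18 without shHrs culture 1 of batch 1 (6.38%), so that calls over all genes moved with those of the members. Over these, the median of the members stayed between -0.62 and -0.36, and at least 51 members were negative. With both shHrs tumour 4 and shHrs culture 2 of batch 2 left out, an alternative chosen after the values were seen, all 52 were negative with a median of -0.41 and 0 were called.

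Genes that make ribosomes also had mostly positive fold changes in cultures and mostly negative ones in tumours. The list of 89 biogenesis factors was positive for 87 with a median of 0.58 in cultures (0 called), and for 25 of 89 with a median of -0.05 in tumours (0 called). The difference between tumours and cultures called 14 of 89 lower, against 1.49% of all genes, and 0 higher, against 2.12%. Lowest were Rrp15 at -1.34 (SE 0.27) and Ncl, which codes for nucleolin, at -1.22 (SE 0.30). Nearest to 0 among those called were Lsg1, a GTPase of late large-subunit assembly, at -0.65 (SE 0.17) and Polr1c, a subunit of RNA polymerase I and III, at -0.70 (SE 0.18). In batch 2 of the cultures 1 of 89 was called higher, against 1.6% of all genes. It was Pes1, which is needed to process ribosomal RNA of the large subunit, at 1.15 (SE 0.25, adjusted p = 0.0445 by edgeR).

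Of 14 elongation factors and other mRNAs with a pyrimidine tract, 13 were negative in tumours (median -0.19, 0 called) and 12 positive in cultures (median 0.18, 0 called). The difference called 4 of 14 lower, against 1.49% of all genes. They were Eef1b2 at -0.99 (SE 0.20) and Eef1d at -0.90 (SE 0.22), which exchange GTP on the elongation factor, Npm1 at -0.86 (SE 0.20) and Eif4b at -0.62 (SE 0.14). Of 24 tested initiation factors, 21 were negative in tumours (median -0.13) and 23 positive in cultures (median 0.42), with 0 called in either. Their median was 0.18 in batch 1 and 0.58 in batch 2. The difference between tumours and cultures called 3 of 24 lower, against 1.49% of all genes. They were Eif5a at -0.80 (SE 0.18), Eif3b at -0.75 (SE 0.19) and Eif3i at -0.69 (SE 0.17).

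The 79 genes of mitochondrial ribosomal proteins were positive for 70 in cultures (median 0.26) and for 35 in tumours (median -0.02), with 0 called in either. The batches differed, with 45 positive in batch 1 (median 0.02) and 68 in batch 2 (median 0.45). The difference between tumours and cultures called 3 of 79 lower, against 1.49% of all genes and 49 of 1715 abundant genes. They were Mrps18b at -1.01 (SE 0.23), Mrpl45 at -0.69 (SE 0.17) and Mrps14 at -0.64 (SE 0.17). Of the 28 other cytosolic ribosomal protein genes, 26 were positive in cultures (median 0.27). The difference called 3 of these 28 lower, against 1.49% of all genes, namely Rpl26 at -1.54 (SE 0.35), Rpl34 at -0.95 (SE 0.22) and Rpl9 at -0.76 (SE 0.17). Of 7 chaperones that escort ribosomal proteins, 7 were positive in cultures (median 0.48) and 5 in tumours (median 0.01), with 0 called. The difference called 1 of 7 lower, Grwd1 at -1.10 (SE 0.29), against 1.49% of all genes.

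The paralogs of 2 members gave other values. Rpl22l1, which can stand in for Rpl22, had 65.0, 65.9, 80.6, 106 and 51.5 CPM in shHrs tumours, against 84.7, 66.5, 73.9, 71.3 and 84.8 CPM in shCTL tumours, with a log2 fold change of -0.05 (SE 0.17, adjusted p = 0.933). In cultures it was 0.24 (SE 0.33) in batch 1 and -0.95 (SE 0.33, adjusted p = 0.112) in batch 2. Rps27l, a target of p53 in human cells, had log2 fold changes of -0.19 (SE 0.08, adjusted p = 0.294) in tumours and 0.31 (SE 0.19, adjusted p = 0.469) in cultures. Of the 16 regulators of ribosome synthesis, such as Myc and Larp1, 12 were negative in tumours and 12 positive in cultures. In either and in the difference 0 were called. The batches differed, with 13 of 16 positive in batch 1 and 6 of 16 in batch 2 (0 called in either). Myc had log2 fold changes of 1.07 (SE 0.33) in batch 1 and -0.76 (SE 0.33) in batch 2. Those of Larp1 were 0.56 (SE 0.25) and -0.53 (SE 0.25).

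Proliferation genes had the other sign from the members in cultures. All 15 were negative in cultures, with a median of -1.32 and 0 called, and in batch 2 the summed level was 489 and 362 CPM with shHrs, against 2583 and 1595 CPM with shCTL. In batch 1 it was 2966 and 1333 CPM with shHrs, against 2300 and 3189 CPM with shCTL. In batch 2, 10 of 15 were called lower, against 2.43% of all genes. The mitotic cyclin gene Ccnb2 at -3.27 (SE 0.61) and the spindle motor gene Kif11 at -2.89 (SE 0.38) were lowest. Nearest to 0 among those called were Aurka at -1.59 (SE 0.28) and Ccnb1 at -2.09 (SE 0.33). In tumours 12 of 15 were negative with a median of -0.06, and 0 were called. The difference between tumours and cultures was positive for 15 of 15 with a median of 1.23, the opposite sign from the members. Of the 15, 11 were called higher, against 2.12% of all genes. Ccnb2 at 1.93 (SE 0.38) and Cenpf at 1.49 (SE 0.32) were highest, and Aurka at 0.89 (SE 0.20) and Bub1 at 1.12 (SE 0.29) lowest among those called. Of the other marker lists, the only call in these comparisons was the collagen gene Col1a2, a fibroblast marker. It was lower in batch 2 at -2.55 (SE 0.40, adjusted p = 0.0242 by edgeR), where 2.43% of all genes were called lower.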

How the data were processed

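RNA was sequenced in 18 libraries of B16F10 cells and tumours. Per the labels' protocols, libraries were made from total RNA with a NEBNext Ultra kit and read in pairs. Per the submitters' processing notes, STAR 2.4.0h2, DESeq and the build mm10 were used. Which tool counted the reads, over which annotation and with what strand setting, is not given in the sources used here. The values deposited by the authors are raw whole-number counts for each gene symbol, with no normalization. Totals were 17.6 to 27.7 M per library and set the precision. Between libraries of a group the chi-square per degree of freedom was 13.8 to 209, where counting error alone gives 1, and each library was kept as a replicate of its own.

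The 52 members, the other lists and the tests were chosen with earlier results of these data known. Counts were tested with edgeR 4.0.16 in R 4.3.3 (filterByExpr with minimum count 10, TMM, quasi-likelihood F test, two-sided, Benjamini-Hochberg over all genes tested, threshold 0.05). Tumours were fitted alone, cultures with batch as a term, and each batch and the difference between batches with 4 group means over the 8 cultures, so that values for the cultures and for each batch share libraries. The tumour effect minus the mean culture effect was tested in a fit of all 18. Standard errors were derived from fold changes and F statistics. CPM are on TMM-scaled library sizes, within tumours or within cultures, with a pseudocount of 2 on the log2 scale.

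The named members were Hgs, the 4 highest and 4 lowest by fold change in each comparison, every called member, and 15 chosen for their roles. Of the other lists the 2 highest and 2 lowest called genes, and 2 paralogs, were named. Alternatives were other scalings, DESeq2 1.42.0, limma 3.58.1 (voom), no filter, a replicate block, a batch alone, and each library left out. Scripts were tested on simulated counts. Lengths are those of the principal transcript of GENCODE release M21 on GRCm38, the longest where a gene had several.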

Additional observations from a re-analysis of the deposited data

Results flagged for a closer look

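The effect of shHrs differed between tumours and cultures for 4 members by a test of the difference itself in edgeR. These 4 of 52 were called lower, against 1.49% of all genes. The tumour effect minus the culture effect was -0.95 for Rpl30, -0.83 for Rpl10, -0.63 for Rplp0 and -0.62 for Rps4x, on the log2 scale. All 5 shHrs tumours were below all 5 shCTL tumours for Rps4x, as for 2 of 52 members, against 2.61% of all genes. For Rplp0, 4 of 5 were below the lowest shCTL tumour. In cultures both shHrs libraries were above both shCTL libraries in each batch for Rpl10, Rplp0 and Rps4x. This was so for 10 of 52 members in batch 1 (15.5% of all genes) and 36 in batch 2 (32.5%). For Rpl10 in batch 1 the closest libraries were at 771 and 769 CPM. Over the alternatives the adjusted p ran from 0.00505 to 0.105 for Rpl30, from 0.00315 to 0.135 for Rpl10, from 0.00022 to 0.0978 for Rplp0 and from 0.00283 to 0.142 for Rps4x. Hgs, the targeted gene, differed in the same test by -0.82, with an adjusted p of 0.00904 to 0.109 over the alternatives, and its part in the members' difference was not tested. Dixon's test on log2(CPM + 2) was run in 44 groups of 5 tumours, for the genes named in tumours and for the mean of the members. In 0 of them a library stood apart from the other 4. The test asks for a gap above 0.71 of the range, so a smaller gap is not flagged. Rps28 deviated from the shCTL mean by 0.67 in shHrs tumour 4, against -0.37 to -0.05 in the other shHrs tumours.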

How the results depend on the processing

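Members called lower in tumours numbered 6 by DESeq2 (1.88% of all genes), against 0 by edgeR. Members called higher in batch 2 numbered 1 by DESeq2 (7.51% of all genes), 1 without the filter (5.55%) and 6 in a fit of that batch alone (16.1%), against 0, so none was above its share of all genes. For the tumour effect minus the culture effect, members called lower numbered 2 with library totals only (0.941% of all genes), 20 by DESeq2 (4.68%), 2 by limma voom (1.27%), 1 without the filter (0.592%), 1 with the replicate block (0.948%) and 0 without the 2 libraries with the strongest length trend (0.414%), against 4 (1.49%). The replicate numbers did not pair the tumours (correlations of same-numbered deviations from -0.57 to 0.43). In the cultures these correlations were 0.19 in batch 1 and 0.023 in batch 2. With 2 libraries a group each batch gives only 1 such value, which cannot decide whether cultures were paired. Apart from the count of 1 for tumours minus cultures, the replicate block moved no call of a member. In tumours that count was 0 without the block, so it could not fall. Over all genes, calls in tumours went from 31 higher and 41 lower to 0 and 2 with the block. The lowest adjusted p of the members in tumours went from 0.104 to 0.309 by edgeR.

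With 1 library left out, the members' median ran from -0.28 to -0.16 in tumours, 0.13 to 0.31 in cultures, 0.04 to 0.22 in batch 1, 0.14 to 0.55 in batch 2, -0.0096 to 0.42 for batch 2 minus batch 1 and -0.62 to -0.36 for tumours minus cultures. Negative members numbered 49 to 52 in tumours, 0 to 6 in cultures, 4 to 17 in batch 1, 1 to 12 in batch 2, 3 to 27 for batch 2 minus batch 1 and 51 to 52 for tumours minus cultures, where 0 to 18 were called lower. In batch 2, 0 to 1 were called higher, against 0% to 9.48% of all genes.

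Members near 0 changed sign. Log2 fold changes were -0.022 (voom) and -0.026 (replicate block) for Rps28 in tumours. In cultures they were 0.0103 (RLE), 0.0103 (DESeq2) and 0.0035 (no filter) for Rpl15, 0.019 (RLE), 0.019 (DESeq2) and 0.011 (no filter) for Rpl32, and with library totals only -0.035 for Rpl22, -0.0024 for Rps14 and -0.016 for Rps28. In batch 2 they were 0.0062 (RLE) and 0.0062 (DESeq2) for Rpl3, 0.039 (RLE), 0.039 (DESeq2), 0.0023 (TMM without the members), 0.033 (no filter) and 0.029 (that batch alone) for Rps18, and -0.066 (library totals only), -0.012 (voom) and -0.012 (replicate block) for Rpl22. For tumours minus cultures Rps28 was 0.057 with library totals only. The cause was not tested.

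With 1 library left out, ranges that crossed 0 were -0.21 to 0.12 for Rps28, -0.080 to 0.10 for Rps23 and -0.12 to 0.17 for Rps27 in tumours. In cultures they were -0.14 to 0.11 for Rpl15, -0.066 to 0.053 for Rpl32, -0.081 to 0.12 for Rpl22, -0.076 to 0.13 for Rps14 and -0.011 to 0.088 for Rps28. They were -0.25 to 0.14 for Rpl4 and -0.12 to 0.012 for Rpl7a in batch 1. In batch 2 they were -0.24 to 0.25 for Rpl22, -0.14 to 0.092 for Rpl3 and -0.057 to 0.080 for Rps18. They were -0.39 to 0.032 for Rpl10a and -0.49 to 0.34 for Rpl12 in batch 2 minus batch 1, and -0.28 to 0.052 for Rps28 in tumours minus cultures. Low counts limit Rps27, with 49 to 159 counts per library.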
